A study of Mus musculus with 3647 samples.

Results

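Six3, Six3os1, Isl1, Meis1, Meis2, Nr2f2 and Zfhx3 are 7 genes of forebrain patterning that were followed across single mouse nuclei and cells, out of 23420 genes in the deposited tables. They were chosen by name, with the levels of Six3, Isl1, Meis2 and Nr2f2 in GABAergic nuclei of the thalamic reticular nucleus against GFP-sorted nuclei already known from these data, so those levels are given as a description. All 7 were present in each table. A comparison counted a gene when at least 10 of its nuclei carried it, and Meis1 missed this in 1 comparison.

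The thalamic reticular nucleus (TRN) is a shell of GABAergic neurons around the dorsal thalamus. It arises from the prethalamus and inhibits the glutamatergic relay neurons of the thalamus. Transcription factors with a homeodomain (Six3, Isl1, Meis1, Meis2, Zfhx3) and orphan nuclear receptors (Nr2f2) divide the embryonic forebrain into territories, and many remain expressed in the neurons that those territories produce.

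The study sorted single nuclei into plates of 96 wells and sequenced their RNA by a modified Smart-seq2 protocol; each sample is 1 nucleus or cell. Of 3647 samples in the labels, 2653 had values. The groups were Patch-seq cells, whose contents were drawn through a recording pipette (95 cells in 3 batches, 3.58% of the 2653), TRN nuclei sorted with an antibody to the neuronal protein NeuN (28.4%, 8 plates), TRN nuclei sorted on the DNA dye Violet alone (26.2%, 13 plate names) and nuclei of tissue adjacent to the TRN sorted on the dye alone (240 nuclei, 4 plates). Nuclei from hippocampus (440), M2 cortex (6.33% of the 2653), somatosensory cortex (5.62%) and striatum (71) were sorted on the dye and GFP and are described by the submitters as Pvalb-positive, and 43 hippocampal nuclei carried no GFP label. The labels give no strain, genotype, age, sex or animal, nor the construct behind the GFP. The Patch-seq batches were read from parts of the column names. The design text says that the adjacent plates were thalamus and globus pallidus, without saying which is which: plates X012116_GPEp24, gpe_23 and gpe_25 were taken as globus pallidus plates by their names, and ThrP26 was kept apart.

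Levels are in TPM, which are corrected for transcript length and add up to the same total in each nucleus, and a gene was counted as found at any TPM above 0. TPM keep no read depth, so the number of detected genes stands in for it: its median was 6654 in Patch-seq cells (up to 13164), 4983 in NeuN-sorted and 2426 in unselected TRN nuclei, and 2469.5 on the adjacent plates. No label names an animal, so a group is 1 sample however many nuclei it holds, conditions cannot be tested against each other, and the spread over plates is given in place of an error. The 95% intervals beside shares are Clopper-Pearson intervals, which reflect counting error alone. Cell classes were rebuilt from marker genes, with the 7 genes left out of the clustering, and every class name below stands for nuclei that are like that class.

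Six3 lies on chromosome 17 (85613608 to 85629302, + strand, mm10, ENSMUSG00000038805.10), and Six3os1, a noncoding transcript, lies on the opposite strand (85600651 to 85618398, ENSMUSG00000093460.9). Their gene bodies share 4791 bases, and the exons that overlap make up 1.95% of the exon bases of Six3 and 0.892% of those of Six3os1. No source used here says that strand was recorded, so reads from the overlap cannot be told apart. Isl1 lies on chromosome 13 (116298281 to 116309689, - strand, ENSMUSG00000042258.13). Meis1 is on chromosome 11 (18879817 to 19018985), Meis2 on chromosome 2 (115863064 to 116065839), Nr2f2 on chromosome 7 (70351944 to 70366735) and Zfhx3 on chromosome 8 (107942644 to 108961630).

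The promoters of Six3, Six3os1 and Isl1 are shown because, over all TRN GABAergic nuclei, these 3 genes were found together more often than their separate shares give; the excess was smaller in some subsets (values below). Each line gives 250 bases before to 50 bases after the annotated start, 5' to 3' on the gene's own strand, from RefSeq (GRCm38.p6). Capitals mark matches, on either strand, to TGACAG (a core bound by MEIS factors), AGGTCA (a core bound by NR2F receptors), CCAAT (the CCAAT box, read as ATTGG on the other strand) or TATAAA (the TATA box).
Six3, chr17:85620584-85620883, + strand: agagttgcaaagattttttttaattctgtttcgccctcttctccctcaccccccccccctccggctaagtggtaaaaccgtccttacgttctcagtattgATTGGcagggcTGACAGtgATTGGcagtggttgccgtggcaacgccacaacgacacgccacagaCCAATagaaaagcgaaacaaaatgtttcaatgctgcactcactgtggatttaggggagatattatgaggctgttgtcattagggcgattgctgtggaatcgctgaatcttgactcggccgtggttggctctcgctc
Six3os1, chr17:85618347-85618646, - strand: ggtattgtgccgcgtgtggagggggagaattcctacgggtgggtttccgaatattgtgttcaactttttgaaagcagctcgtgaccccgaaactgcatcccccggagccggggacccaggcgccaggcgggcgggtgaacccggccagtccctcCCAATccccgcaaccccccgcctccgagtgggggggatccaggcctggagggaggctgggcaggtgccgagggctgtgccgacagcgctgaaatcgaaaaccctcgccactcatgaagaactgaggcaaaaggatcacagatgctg
Isl1, chr13:116309639-116309938, - strand: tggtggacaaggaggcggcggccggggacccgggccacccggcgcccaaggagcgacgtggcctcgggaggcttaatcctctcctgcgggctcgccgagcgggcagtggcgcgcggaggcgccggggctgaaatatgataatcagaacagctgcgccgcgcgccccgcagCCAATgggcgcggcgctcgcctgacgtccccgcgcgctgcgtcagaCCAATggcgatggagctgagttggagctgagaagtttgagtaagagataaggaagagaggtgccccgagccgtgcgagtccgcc

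The RefSeq start sites of Six3 and Six3os1 are 2438 bases apart. The gene spans given above come from another annotation, in which Six3 begins further upstream and overlaps Six3os1. Six3 had 3 CCAAT matches, with first bases at -150, -131 and -86 relative to the start, Six3os1 had 1 (-96) and Isl1 had 2 (-80 and -34). A CCAAT match was in the promoters of 6 of the 7 genes, all but Zfhx3, and in 37.4% of 32851 RefSeq promoters of the same length. TGACAG was in the Six3 window alone among the 7 (at -139; 19.2% of all promoters), AGGTCA in none (16.3%) and TATAAA in Meis2 alone (13.6%). The 3 windows held 14, 20 and 37 CpG dinucleotides in Six3, Six3os1 and Isl1, against a median of 7 over all promoters. These matches describe the letters of the windows and are not binding sites.

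TRN GABAergic nuclei expressed a shared set of these factors. Of the 7 genes, 6 were found in over 50% of TRN GABAergic nuclei, which were 31.2% of the 2653 nuclei and cells, with Meis1 the exception. The share of all genes found this often was not counted, so 6 of 7 is a description alone. Gad1, Gad2 and Slc17a6 were among the markers that named the clusters, so their shares follow partly from the naming. The GABA-synthesising enzymes Gad1 and Gad2 were found in 98.3% and 97.5% of the nuclei of the class. The calcium buffer Pvalb was found in 81.2%, and Slc17a6, the vesicular glutamate transporter of thalamic relay neurons, in 4.95%.

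Six3, a homeobox factor of the anterior forebrain, was found in 80.3% of these nuclei (95% interval 77.4 to 83%) at a mean of 114.5 TPM. Over the 19 plates with at least 10 such nuclei its share ran from 63.6% to 100%, with a median of 82.1%, and its mean level was 123.7 ± 27.1 TPM (SD over plates). No plate was without it. Six3os1 was found in 67.3% (64 to 70.5%) at 110.5 TPM, with plates between 44.4% and 88.2% and a mean over plates of 110.2 ± 29 TPM (SD, n = 19). Isl1, a LIM homeobox factor known from motor neurons and striatal projection neurons, was found in 65% (61.6 to 68.2%) at 153.5 TPM. It had the highest mean level of the 7 and a wide spread, from 69.9 to 282.9 TPM over plates, with 1 nucleus at 2691 TPM.

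Nr2f2 (COUP-TFII), a nuclear receptor of the caudal forebrain, had the highest share, 84.8% (82.2 to 87.2%), at 130.7 TPM, with plates from 72.2% to 96.2%. Zfhx3, a large zinc-finger homeobox factor, was found nearly as often (81.4%, 78.6 to 84%) but at 25.1 TPM, the lowest level of the 6. Meis2, a homeobox partner of PBX factors, was found in 75.4% (72.3 to 78.3%) at 92 TPM. Its levels were uneven: where found it had a median of 76.1 TPM and quartiles of 6.87 and 182.4 TPM, against quartiles of 55.5 and 190.5 TPM for Six3. The related Meis1 was found in 4.83% (3.47 to 6.52%, 40 nuclei) at 3.6 TPM. By share the order was Nr2f2, Zfhx3, Six3, Meis2, Six3os1, Isl1 and Meis1. The intervals of neighbours in this order overlapped from Nr2f2 to Meis2 and again between Six3os1 and Isl1, but not between Meis2 and Six3os1. Meis1 lay apart from the other 6, with at most 8.97% on any plate against at least 38.9% for Isl1.

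**Figure D1:**
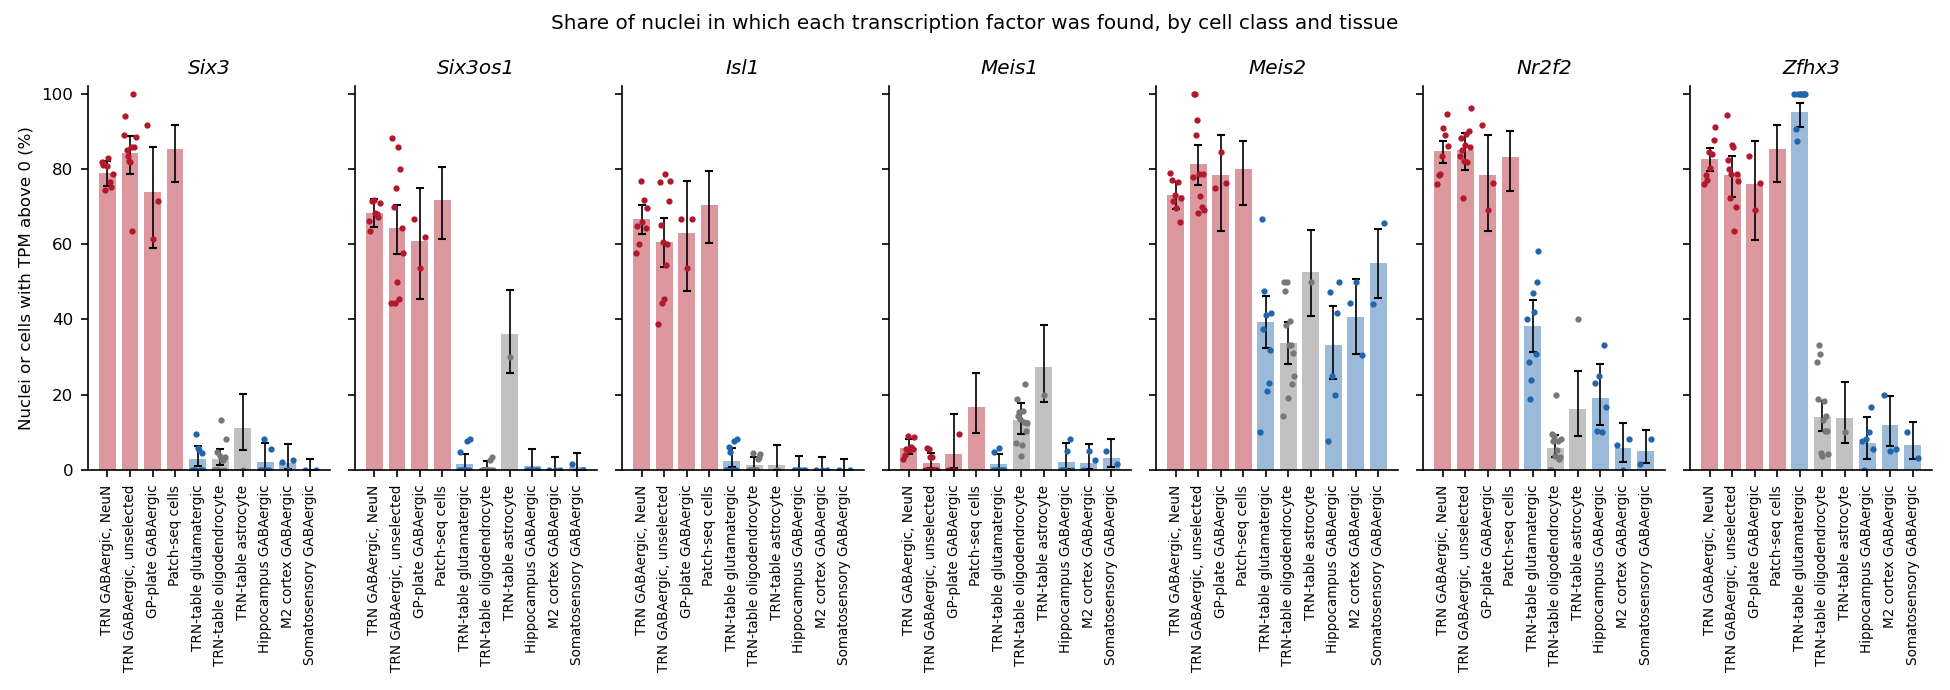
Share of nuclei or cells in which each of the 7 genes was found (TPM above 0, percent, from 0) in each class or group, 1 panel per gene. Bars are all nuclei of the class, error bars 95% Clopper-Pearson intervals and points single plates with at least 10 nuclei of the class. Six3, Six3os1 and Isl1 were found in 60.6% or more of TRN GABAergic nuclei of either sort and in 3.02% or fewer of the thalamic glutamatergic ones. Zfhx3 was found in both classes and Meis1 was low in both.

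Shares were higher in nuclei with more detected genes. In NeuN-selected TRN GABAergic nuclei split into 3 equal sets by detected genes, Six3 was found in 72.6% of the lowest set (1721 to 4580 genes), 80.5% of the middle and 83.6% of the highest set (5358 to 8068 genes). Isl1 ran from 52.2% to 70.5% and 77.1% over the same sets, and Meis1 from 2.99% to 6% and 8.96%. How many nuclei without a gene had a missed transcript was not tested.

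Of the 7 genes, Meis1 differed at least 2-fold in mean TPM between NeuN-selected and unselected TRN GABAergic nuclei, and the other 6 did not. NeuN-selected nuclei were 72.7% of the TRN GABAergic nuclei. Between them and the unselected rest, 1 of the 7 genes differed at least 2-fold in mean TPM (with 1 TPM added to both means, as in every ratio here), against 10.7% of all genes counted. That gene was Meis1, found in 5.98% at 4.88 TPM with NeuN selection and in 1.77% at 0.209 TPM without it (log2 ratio 2.28); its plates did not overlap, as for 0.282% of all genes that were higher, but with 10 TPM added the log2 ratio was 0.54. Six3 was found in 78.9% with NeuN selection and 84.1% without it (105.8 and 137.7 TPM, log2 ratio -0.38), Isl1 in 66.6% and 60.6%, and Meis2 in 73.1% and 81.4%. The plates of both sorts overlapped for these 3 genes and for Six3os1, Nr2f2 and Zfhx3, whose log2 ratios lay between -0.35 and 0.20. All NeuN plates come from another set of plates than the unselected ones, and the sort cannot be told apart from the plates. The NeuN-selected class had a median of 4974.5 detected genes and the unselected class 4267.

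Thalamic relay neurons from the same plates carried Zfhx3, some Nr2f2 and Meis2, and little Six3, Six3os1, Isl1 or Meis1. In TRN GABAergic nuclei against the thalamic glutamatergic nuclei of the TRN plates (7.5% of the 2653), 6 of the 7 genes were at least 2-fold higher, against 10.5% of all genes, and the plates of 5 of them did not overlap, against 0.774% of all genes. The genes were listed for their TRN levels, so these counts are not evidence about them. The glutamatergic class had a similar number of detected genes (median 4972) and carried Slc17a6, a marker used to name it, in 98% of its nuclei.

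Six3 averaged 114.5 TPM in the GABAergic and 0.521 TPM in the glutamatergic nuclei, where it was found in 3.02% (log2 ratio 6.25). Six3os1 averaged 110.5 and 1.52 TPM (5.47; 1.51% of glutamatergic nuclei), and Isl1 153.5 and 8.54 TPM (4.02; 2.51%). Part of the glutamatergic Isl1 level came from plate X102816NP2, at 54.7 TPM, where Isl1 was found in 6.25% of 16 nuclei. Without that plate the log2 ratio was 4.77. On no plate with at least 10 relay nuclei were any of these 3 genes found in over 9.52% of them.

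Nr2f2 and Meis2 were lower in the relay neurons but present. Nr2f2 averaged 130.7 TPM in the GABAergic and 20.7 TPM in the glutamatergic nuclei (log2 ratio 2.60), and was found in 84.8% and 38.2%. Within the glutamatergic class it was found in 51.6% of the nuclei of one cluster, led by Tnnt1 and Pcp4, and in 31.9% of the other, led by Cbln1. Meis2 averaged 92 and 3.35 TPM (4.42) and was found in 75.4% and 39.2%. Where found, Meis2 had a median of 76.1 TPM in GABAergic and 2.74 TPM in glutamatergic nuclei, so the share alone understates the difference in level.

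Zfhx3 ran the other way, at 25.1 TPM in the GABAergic and 49.3 TPM in the glutamatergic nuclei, of which 95% carried it (log2 ratio -0.95). Plates of the classes overlapped, and without plate X012116TRNp6 the log2 ratio was -1.03, past the 2-fold limit. Meis1 was low in both classes (3.6 and 0.559 TPM, log2 ratio 1.56, overlapping plates), and with 10 TPM added its log2 ratio was 0.37, which leaves 5 genes at least 2-fold higher. On the adjacent plate ThrP26, the 26 thalamic glutamatergic nuclei had Zfhx3 in 100%, Nr2f2 in 61.5%, Meis2 in 53.8%, Meis1 in 11.5% and Six3 in 3.85%. Six3os1 and Isl1 were found in none of these 26, which allows a share of up to 11.5%.

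Glia had more Meis1 than the GABAergic neurons and less of most of the other genes. Astrocyte-like nuclei had a nearly equal mean level of Six3os1, in a smaller share of nuclei. In TRN GABAergic nuclei against 300 oligodendrocyte-like nuclei, 6 of the 7 genes were at least 2-fold higher (37% of all genes were) and Meis1 was lower (12.4%). Meis1 averaged 3.6 TPM in the GABAergic nuclei and 44.9 TPM in the oligodendrocyte-like nuclei, 13.3% of which carried it (log2 ratio -3.32). In the oligodendrocyte-like nuclei Six3 was found in 3%, Six3os1 in 0.667%, Isl1 in 1.33% and Nr2f2 in 6%, at log2 ratios between 4.92 and 6.72. The Isl1 ratio of 4.92 rested on plate X083116P4 and was 7.09 without it. Meis2 was found in 33.7% of them, with a median of 2.34 TPM where found. Glial nuclei had fewer detected genes (median 1990.5 in oligodendrocyte-like and 2160.5 in astrocyte-like nuclei), and the part of depth in their lower shares was not tested.

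Against 80 astrocyte-like nuclei of the TRN plates, 5 of the 7 genes were at least 2-fold higher in the GABAergic nuclei (39.8% of all genes were) and Meis1 was lower (16.3%). Isl1 differed most, with 1 astrocyte-like nucleus carrying it (log2 ratio 5.90; without plate X102816_TRNpC it was listed at 0 in this class). Meis1 averaged 3.6 TPM in GABAergic and 68.6 TPM in astrocyte-like nuclei, and was found in 4.83% and 27.5% (log2 ratio -3.92). Six3os1 did not follow Six3 here: it averaged 110.5 TPM in GABAergic and 96 TPM in astrocyte-like nuclei (0.20), while Six3 averaged 114.5 and 13.4 TPM (3.01). In share Six3os1 was lower in astrocyte-like nuclei (67.3% and 36.2%), and its difference of mean log2(TPM + 1) was 1.84. Single plates set the size of 4 other ratios, with few nuclei behind them. Without X012116TRNp9 the log2 ratio was 4.11 for Six3 and 2.54, in place of 1.67, for Meis2. It was 4.38 for Nr2f2 without trn_10 (3.63 with it) and 2.74 for Zfhx3 without X012116_TRNtest (1.77 with it). The 80 astrocyte-like nuclei had a summed level of the 7 neuronal markers with a median of 5.02 TPM, and Rbfox3, the gene of NeuN, was found in none. Of the GABAergic markers, Gad1 was found in 15% of the astrocyte-like nuclei at a mean of 107.1 TPM and in 100% of the unselected GABAergic nuclei at 1990.6 TPM, Gad2 in 35% (15.4 TPM) and 98.7% (539.2 TPM), and the vesicular GABA transporter Slc32a1 in 5% and 71.2%. The part of neuronal RNA in the astrocyte-like levels was not tested.

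Astrocyte-like nuclei carried Six3os1 mostly without Six3, in shares that differed between tissues. It was found in 22 of 29 astrocyte-like nuclei on the globus pallidus plates (75.9%, 56.5 to 89.7%), 9 of 17 from striatum (52.9%, 27.8 to 77%), 29 of 80 from the TRN plates (36.2%, 25.8 to 47.8%), 1 of 14 on plate ThrP26 (7.14%) and 0 of 16 from hippocampus, which allows a share of up to 18.8%. Of the astrocyte-like nuclei with Six3os1, 23 of the TRN, 19 of the globus pallidus plates and all 9 of the striatum had no Six3. TRN GABAergic nuclei were the reverse, with Six3os1 alone in 4.23% of nuclei, Six3 alone in 17.3% and both in 63%. The 3 globus pallidus plates gave 100%, 63.6% and 75% of 6, 11 and 12 astrocyte-like nuclei, and the TRN plates with at least 5 such nuclei gave 20% to 66.7%. Meis1 had another order over the same tissues, at 27.5% in the TRN, 28.6% on ThrP26 and 6.9% on the globus pallidus plates, and was found in no astrocyte-like nucleus of striatum or hippocampus. Median detected genes were alike, at 2284 on the globus pallidus plates, 2270 in striatum and 2160.5 in the TRN. Tissue and plate cannot be told apart.

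**Figure D2:**
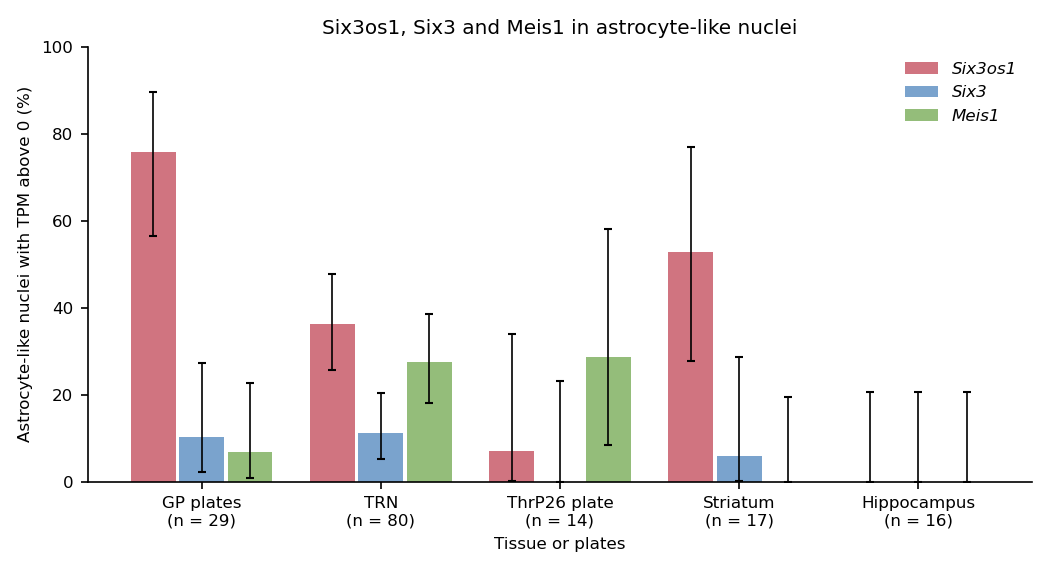
Share of astrocyte-like nuclei (percent, from 0) in which Six3os1, Six3 and Meis1 were found, by tissue, with 95% Clopper-Pearson intervals. Six3os1 was found in 75.9% on the globus pallidus plates, 52.9% in striatum, 36.2% in the TRN, 7.14% on plate ThrP26 and in none from hippocampus, while Six3 stayed at or under 11.2% in each.

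GFP-sorted nuclei of the GABAergic class from other regions had little of the set. Nuclei with striatal projection neuron markers are not in this class and are given below, although those from striatum carried Gad1 in 72.2%. Against the GFP-sorted GABAergic nuclei (12.6% of the 2653, taken as the mean of 4 region means), all 7 genes were at least 2-fold higher in TRN GABAergic nuclei, against 9.4% of all genes, and plates did not overlap for 6 of them, all but Meis1, against 0.337% of all genes. As above, the genes were listed with this contrast known. For Six3 (6.77), the share of 80.3% in TRN GABAergic nuclei stood against 2.02% in hippocampus, 1.98% in M2 cortex and none of 120 in somatosensory cortex and 14 in striatum, which allows up to 2.5% and 21.4%. Six3os1 (6.62) was found in 1.01% of hippocampal and 0.833% of somatosensory nuclei and in no other. Isl1 was found in no hippocampal, M2 or somatosensory nucleus (up to 3.03%, 2.97% and 2.5%) and in 1 of 14 from striatum, at 106.9 TPM. Its ratio of 5.73 rested on that nucleus, and without the striatal plate the gene was listed at 0 in the GFP-sorted groups.

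Nr2f2 was found in 84.8% of TRN GABAergic nuclei, against 19.2% in hippocampus, 5.94% in M2, 5% in somatosensory cortex and 0 of 14 in striatum (log2 ratio 5.13). Zfhx3 was found in 81.4% against 7.07%, 11.9%, 6.67% and 21.4% in the same 4 regions (2.75; 3.40 without the striatal plate). Meis2 was the member most often found elsewhere, in 33.3%, 40.6%, 55% and 50%, but with a median where found of 3.14 TPM over the GFP-sorted GABAergic nuclei against 76.1 TPM in the TRN (4.17). Meis1 was found in 4.83% of the TRN nuclei and in 0 to 3.33% by region (1.62). Its log2 ratio was 0.37 with 10 TPM added and its difference of mean log2(TPM + 1) was 0.17, either of which leaves 6 genes at least 2-fold higher. With classes taken from marker genes nucleus by nucleus the log2 ratio was -0.12. Median detected genes were 4785 in TRN GABAergic and 4267 in GFP-sorted GABAergic nuclei. GFP-sorted glutamatergic nuclei of cortex and hippocampus (10.9% of the 2653) had Meis2 in 46.2%, Zfhx3 in 13.5%, Nr2f2 in 10.4% and Isl1 in none.

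The GABAergic nuclei of the globus pallidus plates had nearly the same levels as those of the TRN. Of the 7 genes, 1 (Meis1) differed at least 2-fold between these 46 nuclei and the TRN GABAergic nuclei, against 23% of all genes, and no gene's plates were apart. Six3 was found in 73.9% at 129.7 TPM on the globus pallidus plates and in 80.3% at 114.5 TPM in the TRN (log2 ratio 0.18). Its share was 91.7%, 61.5% and 71.4% on plates X012116_GPEp24, gpe_23 and gpe_25, with 12, 13 and 21 nuclei. Six3os1 was found in 60.9% and 67.3% (0.27), Isl1 in 63% and 65% (0.03), Meis2 in 78.3% and 75.4% (-0.09), Nr2f2 in 78.3% and 84.8% (-0.34) and Zfhx3 in 76.1% and 81.4% (-0.40). Meis1 was found in 2 of the 46 nuclei, both on plate gpe_25 (9.52% of its nuclei), at a mean of 1.01 TPM, against 3.6 TPM in the TRN (-1.19). Against unselected TRN nuclei alone (20.3% of all genes past 2-fold), the sort that the globus pallidus plates share, it was found in 2 and 4 nuclei, too few to be counted, and its log2 ratio was 0.74. In the comparison with all TRN GABAergic nuclei, leaving out a plate gave log2 ratios from -2.20 (without gpe_25) to -0.93 (without gpe_23), and it was also under 2-fold without X012116_GPEp24. Lhx6, a factor of pallidal neurons, was found in 8.7% of these 46 nuclei at a mean of 30.5 TPM and in 0.845% of TRN GABAergic nuclei at 0.0264 TPM (4.94, the highest ratio on its list). Nkx2-1, another pallidal factor, was found in 23.9% at 3.23 TPM, against 18.5% at 1.41 TPM in all TRN GABAergic nuclei and 27.9% at 2.93 TPM in the unselected ones. Neither was found in 73.9% of the globus pallidus plate nuclei, 80.7% of all TRN GABAergic nuclei and 71.2% of the unselected ones, and pallidal neurons and TRN neurons taken along with them cannot be told apart from the labels.

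A second class on those plates had another combination. The 18 nuclei with striatal projection neuron markers had Meis2 in 94.4%, Six3 in 44.4%, Zfhx3 in 33.3%, Isl1 in 22.2%, Meis1 in 16.7% and Six3os1 in 5.56%, and Nr2f2 in none (up to 16.7%). The 18 such nuclei from striatum gave Meis2 in 88.9%, Zfhx3 in 44.4%, Six3 in 33.3%, Isl1 in 22.2% and Nr2f2 in none.

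Most TRN GABAergic nuclei carried most of the set at the same time. At least 5 of the 7 genes were found in 62% of them, in 63% of the globus pallidus plate GABAergic nuclei and in 69.5% of Patch-seq cells. The share was 1.25% in astrocyte-like nuclei and 0% in thalamic glutamatergic, oligodendrocyte-like and GFP-sorted GABAergic nuclei. The median number found per nucleus was 5 in TRN GABAergic nuclei, 5 on the globus pallidus plates and 6 in Patch-seq cells, against 2 in thalamic glutamatergic nuclei and 1 in both glial classes and in GFP-sorted GABAergic nuclei. The most frequent combination in the TRN was all genes but Meis1, in 31.8% of nuclei. None of the 7 was found in 1.21% of TRN GABAergic nuclei, against 49.3% of oligodendrocyte-like and 42.8% of GFP-sorted GABAergic nuclei. In thalamic glutamatergic nuclei the commonest combinations were Zfhx3 alone (31.2%), Zfhx3 with Nr2f2 (22.1%) and Zfhx3 with Meis2 (21.1%).

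**Figure D3:**
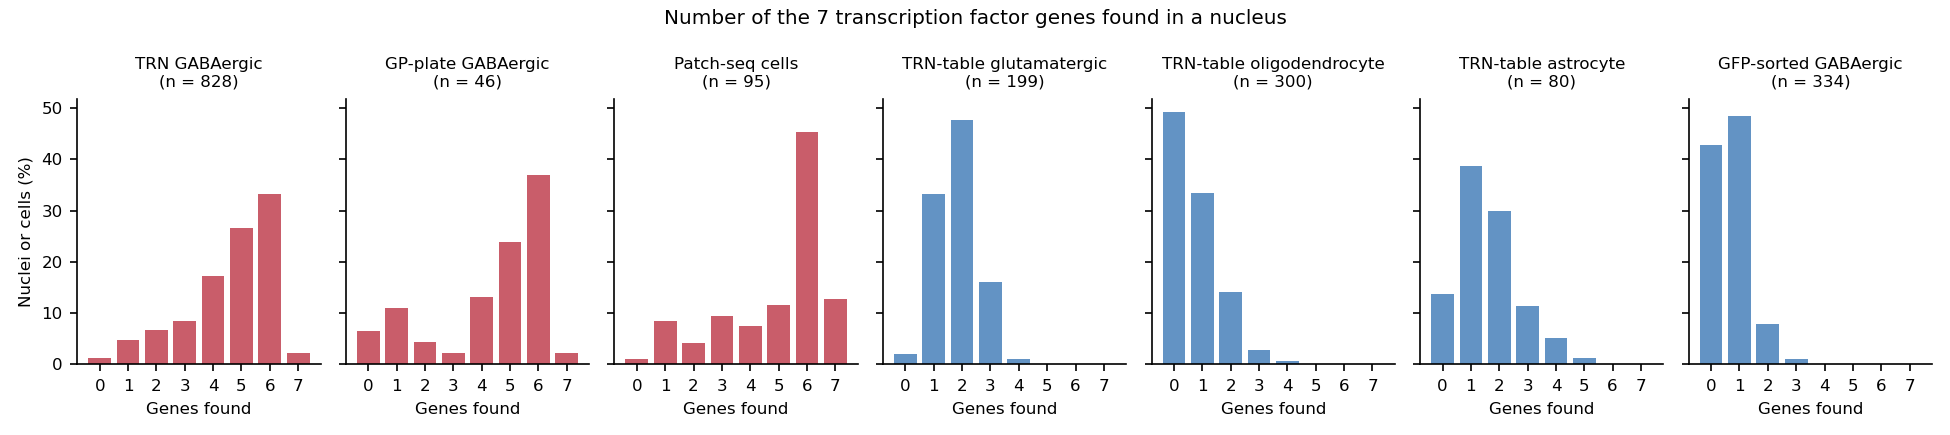
Percent of nuclei or cells (vertical axis, from 0) by the number of the 7 genes found in them (0 to 7), for 7 classes. TRN GABAergic, globus pallidus plate GABAergic and Patch-seq cells peak at 6 genes, and the other 4 classes at 2 or fewer.

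Pairs of the genes were found together slightly more often than the product of their shares. Over the 21 pairs in TRN GABAergic nuclei, the median ratio of observed to expected co-detection was 1.08 (0.973 to 1.19), with 19 pairs above 1. With the expectation taken within each plate and each of 3 sets of detected genes, the median was 1.05. Over the 13 plates with at least 20 such nuclei the median ratio ran from 1 to 1.15 (SD 0.0423). High shares cap this ratio, since a gene found in 80.3% of nuclei cannot exceed its expectation by much.

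Six3 and Six3os1 were found together in 63% of nuclei, against 54% expected (ratio 1.17, and 1.14 within plate and depth). Six3os1 was found in 78.5% of nuclei with Six3 and in 21.5% of nuclei without it. Isl1 showed the same lean, found in 73.7% of nuclei with Six3 and in 29.4% without (59.2% together against 52.2% expected, ratio 1.13). In NeuN-selected nuclei Isl1 was found in 78.5% with Six3 and 22% without (ratio 1.18), in unselected nuclei in 61.6% and 55.6% (1.02, and 0.98 within plate and depth), and in Pvalb-found nuclei in 76.7% and 61% (1.02). Six3os1 and Isl1 were found together in 50.8% against 43.7% (1.16). The ratio of Six3 with Six3os1 was 1.19 in NeuN-selected, 1.1 in unselected and 1.05 in Pvalb-found nuclei, and that of Six3os1 with Isl1 was 1.2, 1.06 and 1.03 in the same order. Nr2f2 was found in 91.7% of nuclei with Six3 and 56.4% without (1.08). Zfhx3 had ratios near 1 with the frequent genes: Six3 with Zfhx3 had a ratio of 1.02 and Meis2 with Zfhx3 of 1. Meis1 pairs rest on 30 to 38 nuclei each and ran from 0.973 with Nr2f2 to 1.19 with Isl1.

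**Figure D4:**
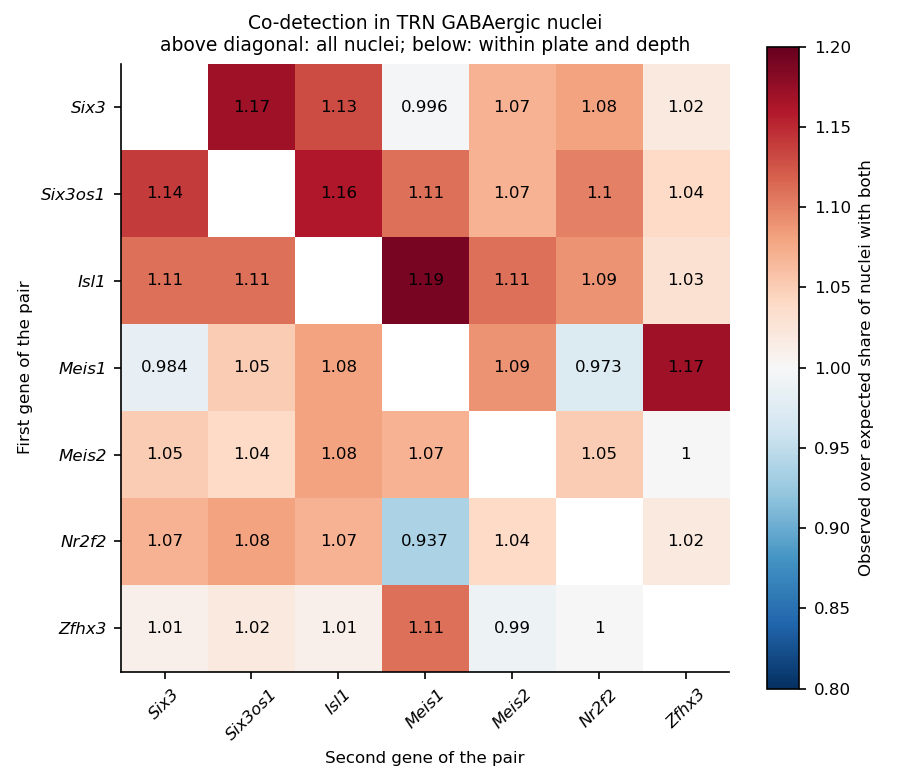
Heat map of observed over expected co-detection for each pair of the 7 genes in TRN GABAergic nuclei, with all nuclei above the diagonal and the expectation within plate and 3 sets of detected genes below it. Six3, Six3os1 and Isl1 form the highest ratios among the frequent genes (1.13 to 1.17 above the diagonal), and pairs with Zfhx3 lie close to 1 apart from Meis1 with Zfhx3 (1.17).

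The median ratio differed between subsets of the TRN nuclei, but high shares cap it unequally. Six3 was found in 95.6% of nuclei with Spp1 alone and 73.7% of those with Ecel1 alone, so the ratios do not rank the subsets. The median ratio was 1.1 in NeuN-selected nuclei (21 of 21 pairs above 1), 1.03 in unselected ones over 15 pairs with at least 5 expected nuclei (1 within plate and depth, with 8 of 15 pairs above 1), 1.01 in nuclei with Spp1 alone and 1.1 in nuclei with Ecel1 alone. In nuclei in which Pvalb was found it was 1.02. On the globus pallidus plates it was 1.23 (15 pairs, 46 nuclei) and in Patch-seq cells 1.11, or 1.02 within batch and depth. In Pvalb-found nuclei the mean within-plate rank correlation of Six3 and Six3os1 levels was 0.112, against 0.272 over all TRN GABAergic nuclei (13 plates, -0.107 to 0.501). These correlations are across nuclei of the same plates that differ in detected genes, and are weak.

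Most of the set was higher where Pvalb was found, a comparison chosen after the data were seen, and 1 cluster of nuclei held most of the other side. In TRN GABAergic nuclei with Pvalb found (81.2%) against those without, 5 of the 7 genes were at least 2-fold higher, against 7.35% of all genes. Six3 was found in 91.2% with Pvalb and 33.3% without it (log2 ratio 1.69), Six3os1 in 77.1% and 25% (1.81), Isl1 in 75.3% and 20.5% (2.18), Meis2 in 81.7% and 48.1% (1.3), and Nr2f2 in 92.7% and 50.6% (1.2). Zfhx3 was found in 82.6% and 76.3% (-0.25) and Meis1 in 4.91% and 4.49% (0.29). Nuclei with neither Pvalb nor Six3, 12.6% of the class, had Zfhx3 in 73.1%, Nr2f2 in 49%, Meis2 in 42.3% and Six3os1 and Isl1 in 11.5% each, at a median of 4510 detected genes. Of the nuclei without Pvalb, 73.1% were in a cluster led by Baiap3, Calb2 and Otof, which held 3.12% of those with Pvalb. In that cluster Six3 was found in 33.3% of 21 nuclei with Pvalb and 25.4% of those without, at 20.2 and 15.9 TPM, and Nr2f2 in 66.7% and 43.9%, at 36.1 and 51.8 TPM. In the other clusters Six3 was found in 93.1% with Pvalb and in 54.8% of 42 nuclei without it, at 135.4 and 105.7 TPM, and Isl1 in 76% and 40.5%, at 183.3 and 67.9 TPM; median detected genes were 4857 and 3481 there. Of 20 prethalamic and ventral forebrain factors, 5 were at least 2-fold higher and 9 lower where Pvalb was found, with a median log2 ratio of -0.30 against -0.01 over all genes. Esrrg (2.22), Dlx6 (1.98) and Sp8 (1.51) were the highest, and Sox14 (-3.87), Gata3 (-3.83) and Lhx1 (-2.63), factors of other GABAergic lineages of the thalamus and midbrain, the lowest.

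Spp1 and Ecel1 were found in largely different TRN GABAergic nuclei. Nuclei with Spp1 and no Ecel1 (33.1% of the class; Spp1 encodes the secreted phosphoprotein osteopontin) were compared with nuclei with Ecel1 and no Spp1 (33.6%; Ecel1 encodes an endopeptidase-like enzyme). Spp1 was among the leading genes of one cluster, which held 43.8% of the Spp1-only and 6.12% of the Ecel1-only nuclei, and Ecel1 among those of another, which held 4.74% and 38.1%; whether the nuclei form groups or a continuous series was not tested. The cluster led by Baiap3 held 1.09% and 21.2%, and that led by Ptchd1 and Map3k1 held 38.7% and 18%. None of the 7 genes differed 2-fold in mean TPM, against 13.7% of all genes. Six3 leaned to the Spp1-only nuclei: it averaged 152.2 TPM in Spp1-only and 86.2 TPM in Ecel1-only nuclei (log2 ratio 0.81) and was found in 95.6% and 73.7%. It was higher in Spp1-only nuclei on all 15 plates with at least 5 nuclei of each kind, which held for 0.77% of all genes. The plate ratios had a median of 0.77 and ran from 0.20 (plate X012116TRNp9, 110.1 and 95.9 TPM) to 2.33 (plate X012116TRNp8, 254.2 and 49.8 TPM).

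Six3os1 averaged 142.4 TPM in Spp1-only and 86.4 TPM in Ecel1-only nuclei (0.71, higher on 11 of 15 plates), and was found in 85.4% and 57.9%. Isl1 averaged 192.3 and 133.7 TPM (0.52, 12 of 15 plates; found in 81% and 60.4%). Nr2f2 averaged 152.6 and 118.3 TPM (0.37, 11 of 15 plates; 96% and 82%). Meis2 leaned slightly the other way in level, at 82.6 and 102.3 TPM (-0.30, lower on 9 of 15 plates), but not in share (81% and 71.9%). Zfhx3 averaged 23 and 24.3 TPM (-0.08) and Meis1 2.37 and 3.7 TPM (-0.48). As a difference of mean log2(TPM + 1), which weighs nuclei at 0 more, 4 of the 7 passed 1: Six3 (2.02), Six3os1 (2.07), Isl1 (1.68) and Nr2f2 (1.25). The share of all genes past 1 on this measure was not counted, so these 4 have no background beside them. All genes but Meis1 were found in 44.9% of Spp1-only and 24.5% of Ecel1-only nuclei.

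Depth and Pvalb differed between the same nuclei. Median detected genes were 5264 in Spp1-only and 4618.5 in Ecel1-only nuclei, Pvalb was found in 97.8% and 76.6%, the summed GABAergic markers had medians of 4009.7 and 2694.6 TPM, and the summed astrocyte markers 84.8 and 175.3 TPM. The count of genes past 2-fold was retaken in Pvalb-found nuclei and in nuclei with 4000 to 6000 detected genes, among the other settings below. The part of depth, Pvalb and the marker sums in the differences was not tested. Nuclei with both genes (38) had Six3 in 92.1% and Nr2f2 in 100%, and those with neither (28.7% of the class) had Six3 in 68.5% and Isl1 in 47.9%.

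**Figure D5:**
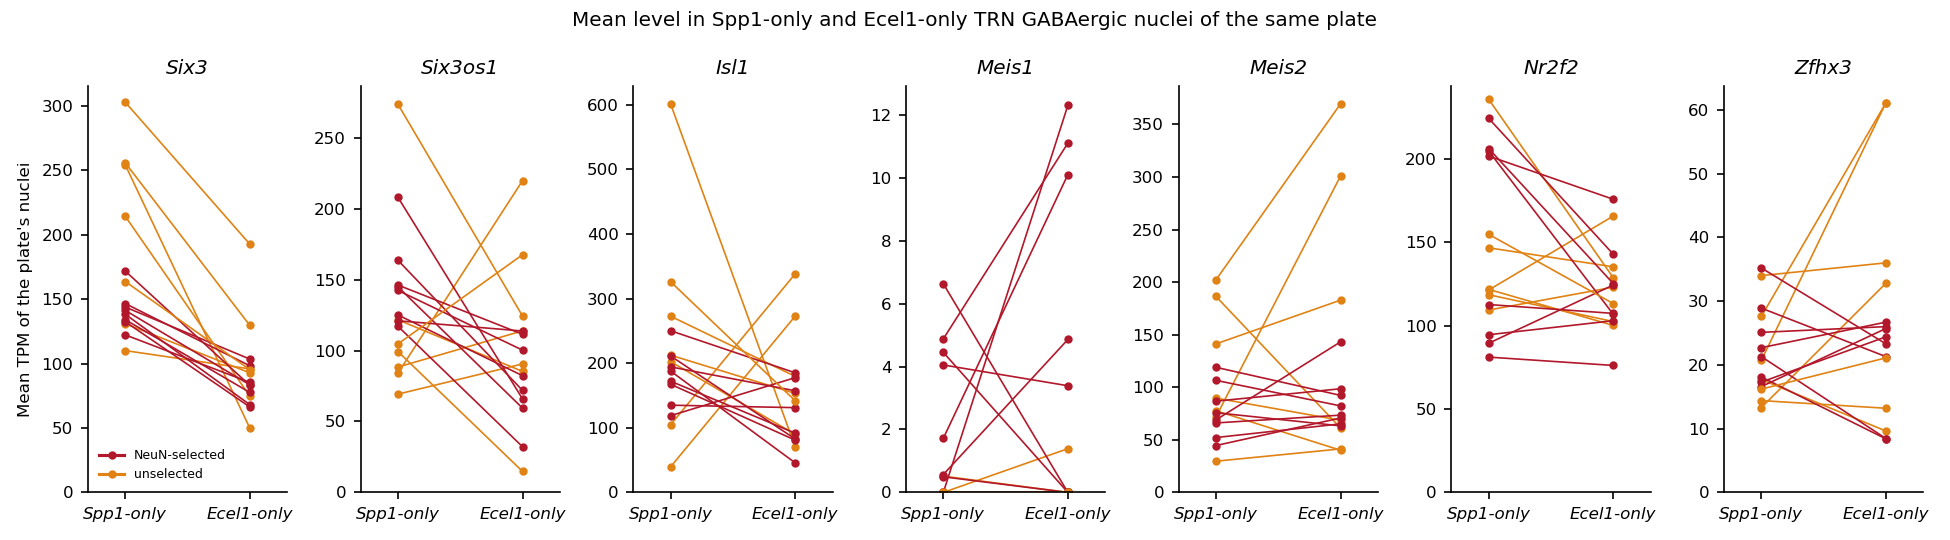
Mean TPM of each gene in Spp1-only nuclei (left) and Ecel1-only nuclei (right) of the same plate, for the 15 plates with at least 5 nuclei of each kind (red, NeuN-selected; orange, unselected). Six3 was higher on the Spp1-only side on 15 of 15 plates, Isl1 on 12, Six3os1 and Nr2f2 on 11 each, and Meis2 and Zfhx3 on 6 each.

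Patch-seq cells carried the 6 genes too, each in 70.5% to 85.3% of cells. Against NeuN-selected TRN GABAergic nuclei, 2 of the 7 differed at least 2-fold, against 34.7% of all genes. Six3 was found in 85.3% of Patch-seq cells and 78.9% of the nuclei, at 77.5 and 105.8 TPM (log2 ratio -0.44). Over the batches of 7, 34 and 54 cells, the last of them named L004 after the end of its column names, Six3 averaged 60.9, 109.7 and 59.4 TPM. Six3os1 was lower in the cells, at 48 TPM against 109.5 TPM in the nuclei (-1.17; found in 71.6% and 68.4%), and at most 58 TPM in any batch. Isl1 (-0.67), Meis2 (-0.57) and Nr2f2 (-0.79) were also lower, at 91.6, 56.1 and 78 TPM in the cells, where the median over all genes was -0.57. Zfhx3 did not follow, at 25.5 TPM in the cells and 23.2 TPM in the nuclei (0.13).

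Meis1 was higher in Patch-seq cells, at 13.8 TPM against 4.88 TPM (1.33; found in 16.8% and 5.98%). Batch L004 carried this level, at 22.7 TPM, with 3.16 TPM in the batch of 7 cells and 1.73 TPM in that of 34. Without L004 the log2 ratio was -0.98. Glial transcripts were also higher in the cells: the summed oligodendrocyte markers had a median of 1862.3 TPM (0.45 to 51062.2), against 98.7 TPM in the nuclei, the summed astrocyte markers of 180.2 against 109.9 TPM and the summed microglia markers of 36.4 against 0 TPM. Their part in the Meis1 level was not tested. In the 14 cells without Six3, the summed neuronal markers had a median of 2797.2 TPM, against 10531.8 TPM in the 81 cells with it. Patch-seq cells with Spp1 alone (32) against those with Ecel1 alone (26) had the same direction for Six3 (102.2 and 57.2 TPM, log2 ratio 0.83), Six3os1 (0.81) and Nr2f2 (0.47). Isl1 was at 0.17 in level but was found in fewer Spp1-only cells (71.9% and 80.8%). The batches were pooled here. At least 10 Spp1-only cells came from each of 2 batches, and as many Ecel1-only cells from 1 batch alone. The part of batch in these ratios was not tested. Meis2 (-1.0) and Meis1 (-3.89) were at least 2-fold lower, against 25.7% of all genes past 2-fold. Meis2 was at -0.85 with 10 TPM added and -0.12 as a difference of mean log2(TPM + 1). Meis1 was found in 18.8% of Spp1-only and 19.2% of Ecel1-only cells, at means of 1.8 and 40.4 TPM. Its difference of mean log2(TPM + 1) was -0.43.

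Against thalamic glutamatergic nuclei, relatives of the 7 genes were mixed, most counted prethalamic factors were higher and thalamic factors lower. Of 17 family relatives and partners that could be counted (of 21 listed), 5 were at least 2-fold higher and 2 lower in TRN GABAergic than in thalamic glutamatergic nuclei, with a median log2 ratio of -0.07 against 0.02 over all genes, 10.5% of which were higher. Lmo3 (2.32), Ldb2 (2.17) and Pbx3 (2.16) were the highest and Lmo4 (-1.48) and Nr2f6 (-1.04) the lowest. Of 23 prethalamic and ventral forebrain factors, 13 were higher and 4 lower, with a median of 1.52. Dlx5 averaged 59.2 TPM and was listed at 0 in the glutamatergic nuclei, Dlx1 had a log2 ratio of 4.77 and Esrrg, an orphan nuclear receptor, of 4.00 (166.7 and 9.45 TPM). Sox2 (-4.43), Zic1 (-3.80) and Foxp2 (-3.32) were lowest on that list. All 7 thalamic factors were lower in the GABAergic nuclei, among them Lef1 (-7.07), Lhx9 (-5.18), Tcf7l2 (-4.41), Rora (-3.12) and Prox1 (-1.60); Lef1, Tcf7l2 and Rora were also class markers.

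Against GFP-sorted GABAergic nuclei, 4 of 17 family relatives were at least 2-fold higher and 1 lower in the TRN, with a median log2 ratio of -0.06 against -0.12 over all genes, 9.4% of which were higher. Zfhx4, the relative of Zfhx3, averaged 49.6 TPM in TRN and 1.77 TPM in GFP-sorted GABAergic nuclei (log2 ratio 4.19; 78.1% and 1.8%), and Nr2f1, the relative of Nr2f2, 74.1 and 16.6 TPM (2.09). Of 22 prethalamic and ventral factors 7 were higher, led by Pax6 (3.56) and Esrrg (3.13), and 5 lower, led by Lhx6 (-6.62) and Nkx2-1 (-4.42), factors of interneurons from the ganglionic eminence, and the list's median was -0.14. Between Spp1-only and Ecel1-only nuclei, 1 of 16 family relatives was higher in Spp1-only nuclei (Six4, 1.72) and 4 were lower, among them Ldb2 (-2.42), Lmo3 (-2.29) and Pbx3 (-1.19), with a median of -0.02 against 0.03 over all genes, 13.7% of which were past 2-fold either way. The thalamic list's Prox1 was found in 59.1% of Spp1-only and 12.6% of Ecel1-only nuclei (2.25), and Pax6 (-1.92) and Lhx1 (-1.97) were lower in Spp1-only nuclei.

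The genes whose shares ran most like Six3 over 16 groups of tissue, sort and class were Isl1 (Pearson r = 0.991), Gnb3 (0.99) and P2ry1 (0.989), among 11702 genes. P2ry1 (0.999) and Bmper (0.993) were nearest to Isl1, B130024G19Rik (0.984) and Coch (0.949) to Nr2f2, and Ramp3 (0.986) to Zfhx3. Six3os1 was nearest to Acacb (0.919) and Rgs6 (0.889), Meis1 to Apln (0.876) and Itgb8 (0.835), and Meis2 to Glipr1 (0.863). The groups share plates, and each r describes these 16 groups. Within TRN GABAergic nuclei, over 13 plates, the genes nearest to Six3 were A930011O12Rik (mean within-plate rank correlation 0.413), Pvalb (0.406) and AI593442 (0.388), and AI593442 (0.325) and Plch1 (0.320) were nearest to Nr2f2. Those of the other members were at most 0.350.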

How the data were processed

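Single nuclei and Patch-seq cells were measured by Smart-seq2, and 3 tables of 23420 genes were deposited with 1687, 871 and 95 columns. The authors' tool list names RSEM, Bowtie, TopHat2 2.0.10, Seurat 2.2.0 and mm10, per the submitters' processing notes. TRN and adjacent nuclei were deposited as the natural log of scaled TPM + 1, judged from the values, since 100% of 236907 values under 2 TPM came out at whole steps of 0.01 TPM (tolerance 0.1 steps) after each column was put back to TPM by a factor of its own (median 0.777). The other 2 tables were deposited as TPM by the authors. TPM keep no depth. No matched column was left out, and 994 samples had no values.

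Columns were matched to samples by name and grouped by the labels. Nuclei were clustered on 2000 variable genes, without the 7 genes, using 30 principal components, 15 neighbours and Leiden resolution 1 (Python 3.11.15, igraph 0.11.9). A cluster was called neuronal when at least 4 of 7 neuronal markers were each found in 50% of its nuclei. Any other cluster was called glial when at least 3 markers of a glial type, and at least 50% of that type's list, were found that often. No other glial type could pass in the same cluster. A neuronal cluster was called GABAergic when at least 2 of 4 GABAergic markers, Gad1 and Gad2 among them, were found that often. These limits were set after marker shares were seen. Levels of 1 GABAergic marker are not reported here. No doublet caller was run on these sorted plates. The 7 genes and the lists were chosen with earlier results of these data known. All 7 genes were named; related genes are those with the 3 highest or 3 lowest log2 ratios on a list, and like genes the 3 nearest. Differences are log2 ratios of mean TPM + 1, with at least 2-fold counted and no test, since each group is 1 sample; the ratio code was tested on simulated data.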

Additional observations from a re-analysis of the deposited data

Results flagged for a closer look

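Shares and mean levels on plates were checked in 42 groups of values, each from 4 to 10 plates. In 5 of these groups, all of mean levels, 1 plate stood apart by more than the 95% limit of Dixon's gap test. These were 3 plates in all. Chance flags about 1 in 20 groups of normally distributed values, while several of the plate means here were at or near 0. Plate X102816NP2 was flagged for mean Isl1 in both neuron classes. Its TRN GABAergic nuclei averaged 194.8 TPM, with the other NeuN-selected plates at 154.1 TPM or less. Unselected plates, checked in no group here, reached 282.9 TPM. Its thalamic glutamatergic nuclei averaged 54.7 TPM, with the others between 0 and 9.96 TPM. That level rests on the 6.25% of its 16 such nuclei in which Isl1 was found. Meis1 in thalamic glutamatergic nuclei averaged 1.5 TPM on plate X102816NP1, with the others between 0 and 0.195 TPM. In hippocampal GABAergic nuclei, plate X041317p7 averaged 0.632 TPM for Six3, with the other plates between 0 and 0.0917 TPM, and 6.53 TPM for Meis2, with the others between 0.803 and 2.16 TPM.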

How the results depend on the processing

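Of 310 values of the main counts and the co-detection ratio under other settings, 94.8% stayed within the limit (1.5 times the main count, or for the ratio its spread over plates) and 16 moved. The members found in over 50% of TRN GABAergic nuclei and the counts against glutamatergic, glial and GFP-sorted nuclei stayed within it, though Meis1 was lost with 10 TPM added and as a difference of mean log2(TPM + 1), leaving 5 in place of 6 against glutamatergic and 6 in place of 7 against GFP-sorted nuclei. The count against astrocyte-like nuclei was 6 in place of 5 as a difference of mean log2, with Six3os1 (1.84) the gene added. The count on the globus pallidus plates was 1, and 0 with 10 TPM added, as a difference of mean log2(TPM + 1) and against unselected TRN nuclei alone, and between 0 and 1 with a plate left out. The count between sorts was 1, and 0 with 10 TPM added and as a difference of mean log2. The count between Spp1-only and Ecel1-only nuclei was 0, and 4 as a difference of mean log2, for which no share of all genes was counted. The Patch-seq count was 2, and 1 with 10 TPM added, with the TRN table as deposited and with classes from marker genes. It was 0 as a difference of mean log2 and in cells with at least 4000 detected genes, and between 1 and 2 with a plate or batch left out. The median co-detection ratio of 1.08 was 1.03 in unselected nuclei and 1.02 in Pvalb-found nuclei. Among ratios at least 2-fold in the main setting, Meis1 changed sign in 4 cases. Its log2 ratios were -0.12 against GFP-sorted nuclei with classes from marker genes and 0.74 for the globus pallidus plates against unselected nuclei. They were -0.23 for Patch-seq cells with at least 4000 detected genes and -0.98 without batch L004. The cause was not tested. Of the log2 ratios of single genes under settings other than a left-out plate, 82.8% stayed within their spread over plates, 86 moved and 3 changed sign. A change of sign was counted only where the main ratio was at least 2-fold. Smaller ratios changed sign too, such as 2 as a difference of mean log2(TPM + 1). Isl1 went from -0.24 to 0.34 between sorts. Meis2 went from -0.30 to 0.39 between Spp1-only and Ecel1-only nuclei. The settings on Pvalb-found nuclei, on 4000 detected genes in Patch-seq cells, on glial markers and on GABAergic clusters with under 3 markers were chosen after seeing the data. No paired analysis was possible because no result comes from a test and the replicate numbers, given in accession order, pair no nuclei; values within shared plates are given in the report. Shares and levels near 1 TPM depend on a depth that TPM do not give.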

Other observations

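Co-detection could be read for few pairs outside the TRN GABAergic nuclei. In oligodendrocyte-like nuclei 4 pairs had at least 5 expected nuclei, with a median ratio of 1.40 (1.29 within plate and depth), in astrocyte-like nuclei 5 pairs with 0.878 (0.960), and in thalamic glutamatergic nuclei 4 pairs with 0.99 (0.991). Among TRN GABAergic nuclei, Sox14 and Gata3 were found in 3.32% and 3.82% of NeuN-selected nuclei and in 0% and 0.442% of unselected ones, the same direction as Meis1.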
